A study of Mus musculus with 8 samples.

Results

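The microglia and macrophage marker genes Lyz2, Cd68, Aif1, Cx3cr1, Csf1r, Tyrobp, Trem2, Itgam, Ctss and P2ry12, were followed across the 8 arrays of a study of the mouse retina. They were taken as a fixed set of named genes, 10 of the 18193 genes that the platform annotation ties to at least 1 probe set. Every probe set that carries 1 of these symbols and no other was used, which gave 14 probe sets: 3 for Csf1r, 2 each for Cx3cr1 and Trem2 and 1 for each other gene. Total RNA came from retinas at postnatal day 40, of mice whose strain is given as BALB/c AJ, dissected away from the pigment epithelium. The groups were wild type (3 arrays), heterozygous for an Nxnl1 null allele (2 arrays) and homozygous for that allele (3 arrays), with no other allele or treatment named. Nxnl1 encodes rod-derived cone viability factor, and how the null allele was made was not given in the sources used here. Each array held whole retina, so in these data fewer cells of a type and less RNA per cell cannot be told apart. No label states that each array had its own animal, and whether retinas were pooled is not given in the sources used here. The p-values thus measure only how these samples spread, and that spread may be technical. Sex of the mice was not part of any fit, so a difference in sex between groups could not be told apart from genotype.

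Values are log2 expression after RMA, a scale on which a difference of 1 is a doubling. The target gene went against the label on a pair of arrays. At its brighter probe set Nxnl1 read 9.22, 8.87 and 8.65 across wild-type arrays 1 to 3, 8.65 and 6.75 under the labels heterozygous 1 and 2, and 6.13, 8.76 and 6.13 under homozygous 1, 2 and 3. The array labelled homozygous 2 thus lay at the wild-type level and that labelled heterozygous 2 below every wild-type array, and the results they move most are also given without them. The actin control signal at the 5' end minus that at the 3' end, a sign of RNA quality, ran from -1.81 to -0.69 and was lowest on wild-type array 1 (-1.81) and on the array labelled homozygous 1 (-1.74). Photoreceptor transcripts read high on all arrays, as with Gnat2, the transducin subunit of cones, which read from 11.06 to 11.29.

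Microglia are the resident macrophages of the retina. They sit mainly in the plexiform layers, survey the synapses with fine processes and clear cell debris, and when photoreceptors are damaged they move outward and take on a phagocytic state. Colony stimulating factor 1 receptor (Csf1r) keeps them alive, Cx3cr1 receives the neuronal ligand fractalkine, P2ry12 senses ADP from injured cells, and Trem2 with its adaptor Tyrobp reads lipids and debris. Itgam is the alpha chain of complement receptor CR3, Aif1 (Iba1) is an actin-binding protein, and Cd68, Ctss (cathepsin S) and Lyz2 (lysozyme) belong to the lysosome and to the killing of microbes. Blood-borne macrophages share most of these genes, so the set marks the lineage rather than microglia alone.

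The regulatory sequence of myeloid genes is known for binding sites of the ETS factor PU.1, often with the core GAGGAA. RefSeq promoter windows of build GRCm38.p6, 250 bases before to 50 bases after the start of the gene, were read for 8 of the 10 genes. Those of Csf1r and Tyrobp were not read, so the counts of matches do not cover these genes. The windows that were read were searched on both strands for GAGGAA and for the ETS-IRF composite. The composite is GGAA and GAAA set 2 bases apart, on which an ETS factor and an interferon regulatory factor can sit together. The GGAA of the composite can be shared with the core. The core was found in 5 of the 8 windows (Cd68, Aif1, Trem2, Itgam and Ctss) against 28.3% of the 32851 windows of the same length in the table, and the composite in 1, that of Cd68, against 2.72%. Windows of 4 genes are shown because the expression results turn on them. Ctss is shown for the pattern shared between arrays, and Aif1 for its correlation with Tyrobp. Cd68 and Lyz2 had the smallest p-values of the set in the comparison of homozygous with wild type. Capitals mark the matches, and where a match is on the other strand the letters read as its reverse complement.
Ctss, chr3:95526536-95526835, plus strand: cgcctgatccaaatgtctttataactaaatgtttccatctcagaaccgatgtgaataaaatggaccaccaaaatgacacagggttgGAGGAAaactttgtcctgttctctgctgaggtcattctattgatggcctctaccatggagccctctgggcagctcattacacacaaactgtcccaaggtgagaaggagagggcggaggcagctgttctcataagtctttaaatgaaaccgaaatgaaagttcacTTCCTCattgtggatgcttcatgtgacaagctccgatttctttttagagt
Aif1, chr17:35176003-35176302, minus strand: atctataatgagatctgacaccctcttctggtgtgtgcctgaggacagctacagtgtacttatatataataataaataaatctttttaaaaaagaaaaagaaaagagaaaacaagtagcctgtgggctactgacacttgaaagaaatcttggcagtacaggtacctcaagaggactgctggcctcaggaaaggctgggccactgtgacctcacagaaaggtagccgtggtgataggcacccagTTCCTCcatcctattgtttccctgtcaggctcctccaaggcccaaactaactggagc
Cd68, chr11:69666121-69666420, minus strand: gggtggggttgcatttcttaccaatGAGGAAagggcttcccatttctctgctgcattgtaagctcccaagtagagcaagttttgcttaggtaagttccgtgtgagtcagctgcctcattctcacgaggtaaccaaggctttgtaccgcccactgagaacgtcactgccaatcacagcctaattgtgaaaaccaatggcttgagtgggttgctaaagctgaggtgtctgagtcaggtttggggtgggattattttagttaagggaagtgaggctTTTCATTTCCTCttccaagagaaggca
Lyz2, chr10:117282223-117282522, minus strand: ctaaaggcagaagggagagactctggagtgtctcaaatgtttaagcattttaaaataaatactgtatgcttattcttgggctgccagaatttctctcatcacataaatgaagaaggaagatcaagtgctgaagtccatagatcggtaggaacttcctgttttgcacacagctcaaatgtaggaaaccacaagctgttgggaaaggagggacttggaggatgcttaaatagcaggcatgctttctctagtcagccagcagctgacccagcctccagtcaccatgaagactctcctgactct
The window of Ctss held 2 cores, that of Aif1 1, and that of Cd68 2, of which the second overlapped the composite. No core or composite stood in the Lyz2 window, which says only that these letters are not in it.

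The comparison of homozygous with wild-type retinas is meant to ask how the loss of Nxnl1 bears on the transcriptome, though homozygous array 2 kept the wild-type Nxnl1 level. All 10 genes lay above 0 at their brightest probe set, with log2 differences from 0.06 for Cx3cr1 to 0.31 for Cd68 and a median of 0.14, where 60.5% of the 18193 genes lay above 0 and the median of all was 0.02. Lens markers, which varied between arrays in the manner described with Ctss, had 9 of 10 above 0 and a median of 0.78 in the same comparison, and their part in the members' differences was not tested. No difference passed the test. For 7 of the 10 genes the difference was smaller than its standard error, and the smallest adjusted p among the members was 0.9999 (limma, Benjamini-Hochberg over 45037 probe sets). Limma called 0 of 45037 probe sets in all, with 411 at an unadjusted p under 0.05. Among the members 1 gene, Lyz2, had an unadjusted p under 0.05, where 0.621% of all genes did so upward and 0.22% downward. With 1 array left out, and so fewer arrays in the fit, that limma p rose above 0.05 in some fits. It was 0.0685 without wild-type array 1, 0.0773 without wild-type array 2 and 0.0903 without homozygous array 1. It was 0.0381 without wild-type array 3, 0.0251 without homozygous array 2 and 0.0464 without homozygous array 3. The Lyz2 difference ran from 0.21 to 0.31 over these fits, against 0.27 with all arrays.

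**Figure D1:**
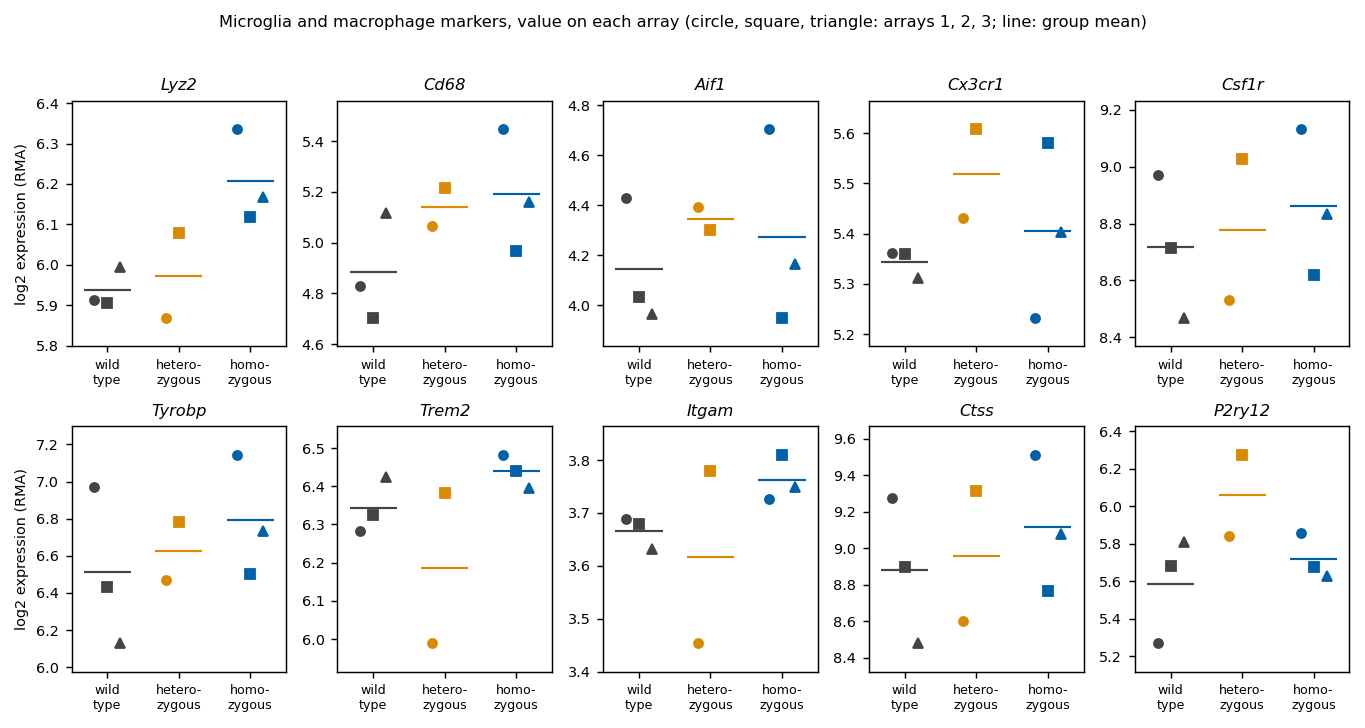
Log2 expression (RMA) of the 10 genes at their brightest probe set on each of the 8 arrays, by genotype label; circles, squares and triangles are arrays 1, 2 and 3 of a label, and lines are group means. Each panel has its own axis. The homozygous arrays all lie above the wild-type arrays for Lyz2 (6.12 to 6.34 against 5.91 to 5.995) and for Itgam, and the groups overlap for the other 8 genes.

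Among the genes of the lysosome and of microbial killing, Lyz2 read 5.91, 5.91 and 5.995 across wild-type arrays 1 to 3, 5.87 and 6.08 under the labels heterozygous 1 and 2, and 6.34, 6.12 and 6.17 under homozygous 1, 2 and 3. Every array labelled homozygous was above every wild-type array, while the heterozygous arrays fell on either side of the wild-type range. The means were 5.94 ± 0.05 (SD, n = 3) for wild type and 6.21 ± 0.11 (SD, n = 3) for homozygous, which differed by 0.27 on the log2 scale (SE 0.10; limma, unadjusted p 0.0280). The exact two-sided permutation test of these 3 arrays against 3 gave p = 0.1, the smallest it allows. Leaving out heterozygous array 2 and homozygous array 2 gave 0.31 (SE 0.11), and without wild-type array 1 and homozygous array 1, the pair of lowest actin difference, it was 0.19 (SE 0.12, unadjusted limma p 0.156).

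Cd68, a lysosomal membrane glycoprotein of macrophages, read 4.83, 4.70 and 5.12 across wild-type arrays 1 to 3, 5.07 and 5.22 under the labels heterozygous 1 and 2, and 5.45, 4.97 and 5.16 under homozygous 1, 2 and 3. Wild-type array 3 stood above homozygous array 2, so the groups overlapped. Homozygous minus wild type, 0.31 on the log2 scale, was the largest difference of the set (SE 0.15, limma unadjusted p 0.0791, exact permutation p = 0.2). With heterozygous array 2 and homozygous array 2 left out it was 0.42 (SE 0.17), and without wild-type array 1 and homozygous array 1 it was 0.15 (SE 0.16).

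Ctss, the cysteine protease that trims the invariant chain of class II antigen presentation, varied more between arrays of 1 label than between labels. It read 9.28, 8.90 and 8.48 across wild-type arrays 1 to 3, 8.60 and 9.31 under the labels heterozygous 1 and 2, and 9.51, 8.76 and 9.08 under homozygous 1, 2 and 3. The group means were 8.88 ± 0.40 (SD, n = 3), 8.96 ± 0.50 (SD, n = 2) and 9.12 ± 0.38 (SD, n = 3), so the difference of homozygous against wild type, 0.23 with an SE of 0.27, was smaller than the spread within either group. It ran from 0.03 without wild-type array 3 to 0.43 without wild-type array 1.

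Of the receptor Trem2 and its adaptor Tyrobp, which carries the signal of Trem2 into the cell, Tyrobp read 6.97, 6.43 and 6.13 across wild-type arrays 1 to 3, 6.47 and 6.78 under the labels heterozygous 1 and 2, and 7.14, 6.50 and 6.73 under homozygous 1, 2 and 3. Wild-type array 1 was above 2 of the 3 homozygous arrays. The log2 difference was 0.28 (SE 0.24, unadjusted limma p 0.267), and it ran from 0.09 without wild-type array 3 to 0.51 without wild-type array 1. The brighter probe set of Trem2 read 6.28, 6.32 and 6.42 across wild-type arrays 1 to 3, 5.99 and 6.38 under the labels heterozygous 1 and 2, and 6.48, 6.44 and 6.40 under homozygous 1, 2 and 3, with a difference of 0.10 (SE 0.12). Its second probe set lay between 5.002 and 5.25 on all 8 arrays and differed by 0.0013 (SE 0.10). Trem2 therefore spread over less than Tyrobp between arrays, with a range of 0.49 against 1.02 on the log2 scale, and the low value of the array labelled heterozygous 1 made up most of it.

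Csf1r had 3 probe sets, and they did not spread alike. The brightest read 8.97, 8.71 and 8.47 across wild-type arrays 1 to 3, 8.53 and 9.03 under the labels heterozygous 1 and 2, and 9.13, 8.62 and 8.83 under homozygous 1, 2 and 3. The groups overlapped, and homozygous minus wild type came to 0.14 (SE 0.19). It ran from 0.0089 without homozygous array 1, and 0.020 without wild-type array 3, to 0.27 without wild-type array 1. The second differed by 0.22 (SE 0.19). The third lay between 7.04 and 7.26 on all arrays, a range of 0.22 against 0.66 for the first and 0.82 for the second, and differed by 0.04 (SE 0.09). The platform annotation gives a transcript accession for the third only, so which transcript ends the first and second read was not settled here.

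Over all 8 arrays the homeostatic receptors Cx3cr1 and P2ry12 had correlations near 0 with Ctss (-0.11 and 0.05) and Tyrobp (-0.15 and -0.10). Without wild-type array 1 and homozygous array 1 these were 0.56 and 0.47 with Ctss and 0.65 and 0.34 with Tyrobp. Without heterozygous array 2 and homozygous array 2 they were instead -0.48 and -0.37 with Ctss and -0.35 and -0.36 with Tyrobp. The sign of these correlations thus depended on which arrays were kept. P2ry12 read 5.27, 5.68 and 5.81 across wild-type arrays 1 to 3, 5.84 and 6.27 under the labels heterozygous 1 and 2, and 5.85, 5.68 and 5.63 under homozygous 1, 2 and 3. Wild-type array 1 was lowest and the array labelled heterozygous 2 highest, a gap of 1.01, while the homozygous arrays stayed within the range of the others. Homozygous minus wild type came to 0.13 (SE 0.17) and turned to -0.03 without wild-type array 1. The brighter probe set of Cx3cr1 read 5.36, 5.36 and 5.31 across wild-type arrays 1 to 3, 5.43 and 5.61 under the labels heterozygous 1 and 2, and 5.23, 5.58 and 5.40 under homozygous 1, 2 and 3, with a difference of 0.06 (SE 0.11). Its dimmer probe set ran from 3.76 to 4.35 and differed by 0.06 (SE 0.16). The array labelled homozygous 1, which had the highest Ctss, Tyrobp, Cd68 and Lyz2 values, had the lowest Cx3cr1 value at the brighter probe set, and with heterozygous array 2 and homozygous array 2 left out the Cx3cr1 difference was -0.03.

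Aif1 and Itgam lay low on the scale. Aif1 read 4.43, 4.03 and 3.97 across wild-type arrays 1 to 3, 4.39 and 4.30 under the labels heterozygous 1 and 2, and 4.70, 3.95 and 4.16 under homozygous 1, 2 and 3. Homozygous array 1 was the highest and homozygous array 2 the lowest of all 8, so the difference of 0.13 (SE 0.20) turned to -0.09 without homozygous array 1. Itgam read 3.69, 3.68 and 3.63 across wild-type arrays 1 to 3, 3.45 and 3.78 under the labels heterozygous 1 and 2, and 3.73, 3.81 and 3.75 under homozygous 1, 2 and 3. The homozygous arrays all lay above the wild-type arrays, but by a difference of 0.10 with an SE of 0.10 (unadjusted limma p 0.383, exact permutation p = 0.1). Lyz2 and Itgam were thus 2 of 10 genes with all homozygous arrays above wild type, where 3.25% of all genes had that order and 1.58% the opposite one. The mean level of 6 of the 10 genes, Itgam, Aif1, Cd68, Cx3cr1, P2ry12 and Lyz2, was below the median of all probe sets (6.19), and 4 would pass a filter set there.

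**Figure D2:**
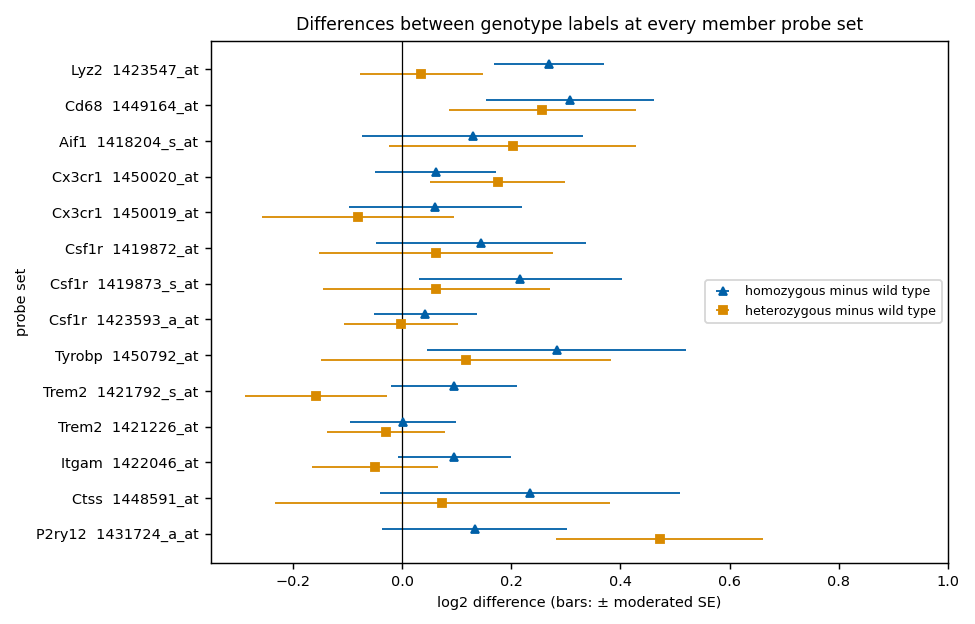
Log2 differences of the homozygous and of the heterozygous group against wild type at each of the 14 member probe sets; symbols are the differences and bars the moderated standard error. All 14 homozygous differences lie above 0, from 0.0013 to 0.31, none past the adjusted threshold; the heterozygous differences lie on either side of 0, from -0.16 for Trem2 to 0.47 for P2ry12.

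With heterozygous array 2 and homozygous array 2 left out, the median over the 10 genes was 0.28, with 9 of 10 above 0. The median of all probe sets was then 0.0038. Tyrobp differed by 0.43 (SE 0.27) in that fit, Ctss by 0.41 (SE 0.26), Aif1 by 0.29 (SE 0.22) and Csf1r by 0.26 (SE 0.18). Lyz2 differed by 0.31 and Cd68 by 0.42. Without wild-type array 1 and homozygous array 1 no member had an unadjusted limma p under 0.05. Of all 45037 probe sets 667 did, 417 higher and 250 lower. The unadjusted limma p was 0.156 for Lyz2 and 0.373 for Cd68, and no member passed the adjusted threshold in that fit.

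Heterozygous minus wild type is meant to address 1 null copy, though its 2 arrays read 8.65 and 6.75 at the brighter Nxnl1 probe set. There 8 of 10 genes lay above 0, with a median of 0.10, where 47.6% of all genes did and their median was -0.0067. P2ry12 had the largest difference, 0.47 (SE 0.19, unadjusted limma p 0.0369), with 0.451% of all genes past 0.05 upward and 0.72% downward, and both heterozygous arrays (5.84 and 6.27) were above the highest wild-type array (5.81). The difference rested on single arrays, and was 0.26 without heterozygous array 2 (SE 0.22, unadjusted limma p 0.290), 0.31 without wild-type array 1 (SE 0.17, unadjusted limma p 0.1002) and 0.69 without heterozygous array 1. Both heterozygous arrays were also above wild type at the brighter probe set of Cx3cr1, with a difference of 0.18 (SE 0.12) that was 0.086 without heterozygous array 2; 2 of 10 genes had this order, while 6.95% of all genes did and 8.03% had the opposite order. The brighter probe set of Trem2 differed by -0.16 (SE 0.13) and Itgam by -0.05 (SE 0.12). No member passed, with a smallest adjusted p of 0.9999 (limma). With array 1 of the label left out the median was 0.27, and with array 2 left out, whose Nxnl1 level is at odds with the label, it was -0.05. Without wild-type array 3 the median was 0.00049, with 5 of 10 genes above 0. The direction of the set thus depended on which arrays were kept. Pigment epithelium and choroid markers moved in the same comparison, with 9 of 10 below 0, a median of -0.54 and 4 lower at an unadjusted p under 0.05. Their mean centred level ran from -0.17 to 0.36 in the wild-type group, from -0.34 to -0.28 in the heterozygous group and from -0.21 to 0.18 in the homozygous group. Dct, a melanin enzyme, differed by -0.80 (SE 0.24) and the opsin Rgr by -0.68 (SE 0.27). The part of these cells in the members' differences was not tested. Homozygous against heterozygous, 7 of 10 genes lay above 0 with a median of 0.11, where 63.7% of all genes did. In it 0 members had an unadjusted p under 0.05, where 0.632% of all genes did upward and 0.176% downward. Lyz2 and Trem2 had every homozygous array above both heterozygous ones, an order that 7.58% of all genes had and 3.42% had reversed. This comparison and the others share arrays.

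Across the arrays, the members fell into genes that varied together and genes that did not. Ctss, the brightest probe set of Csf1r and Tyrobp shared their 4 highest arrays, which were wild type 1 and the arrays labelled heterozygous 2, homozygous 1 and homozygous 3. Of all genes, 8.54% had the same 4 arrays highest. The arrays labelled heterozygous 2, homozygous 1 and homozygous 3 were also those lowest in Nxnl1 (6.75, 6.13 and 6.13 at its brighter probe set). Wild-type array 1 had the highest Nxnl1 value, 9.22. Ctss and Csf1r put the 8 arrays in an identical order, with a Pearson correlation of 0.998 (Spearman 1.0) over the 8 arrays, and 0.997 without wild-type array 3 and homozygous array 1, the pair farthest from the Csf1r median. Of 18192 genes, the one most like Csf1r was Ctss. Tyrobp correlated with Ctss at 0.945 (Spearman 0.905) and with Csf1r at 0.933 (Spearman 0.905), and Aif1 with Tyrobp at 0.823 (Spearman 0.738). Without wild-type array 1 and homozygous array 1 these 4 values were 0.996, 0.896, 0.876 and 0.535. They describe the same 8 arrays, were picked from 45 pairs for being high, and carry no test.

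**Figure D3:**
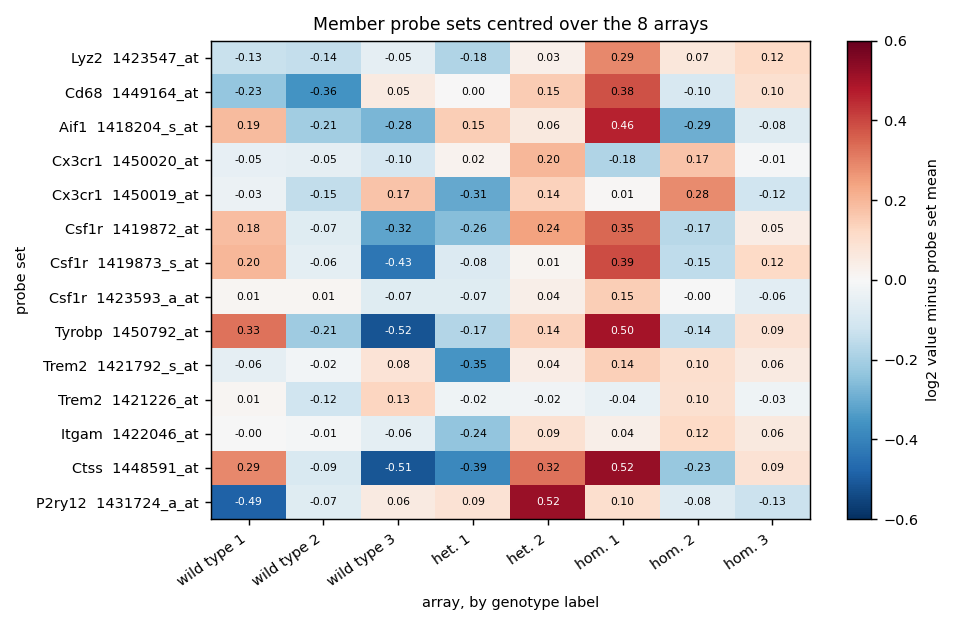
Log2 value of each of the 14 member probe sets minus its own mean over the 8 arrays (columns, by genotype label), in colour and digits. Ctss, Tyrobp and the first probe set of Csf1r are high on wild type 1, heterozygous 2, homozygous 1 and homozygous 3 and low on the others, whereas the brighter Cx3cr1 probe set is lowest on homozygous 1 and P2ry12 on wild type 1.

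Over the 45 pairs of members the median correlation was 0.37, with 35 pairs above 0 and the lowest value, -0.38, between Aif1 and Cx3cr1. Lyz2 went with Cd68 (0.773) and with the brighter probe set of Trem2 (0.721). Without wild-type array 1 and homozygous array 1 these were 0.484 and 0.725. Trem2 went with Itgam at 0.850, which fell to 0.196 without wild-type array 1 and heterozygous array 1, so that value rests on the array labelled heterozygous 1, where both genes were lowest. Within genes, the first and second Csf1r probe sets correlated at 0.878, while those of Cx3cr1 (0.356) and of Trem2 (0.244) did not go together closely.

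Markers of the lens moved with the Ctss pattern. The lens list had 10 of 10 entries measured, and 6 of them, the crystallins Cryaa, Cryab, Crybb2, Crybb1, Cryba1 and Crygs, were highest on the same 4 arrays. Crygs read 9.44, 6.21 and 4.53 across wild-type arrays 1 to 3, 5.14 and 9.19 under the labels heterozygous 1 and 2, and 10.47, 4.41 and 8.50 under homozygous 1, 2 and 3. The mean centred level of the list ran from -1.20 to 0.84 in wild type, from -1.08 to 0.85 in the heterozygous group and from -1.31 to 1.83 in the homozygous group. The other 4, Mip, Bfsp1, Bfsp2 and Lim2, moved less, and Mip, the lens water channel, read between 4.82 and 5.17 on all arrays. The actin 5' minus 3' difference was -1.81, -0.71, -1.74 and -1.26 on the 4 arrays of high Ctss and -1.04, -0.80, -0.90 and -0.69 on the others. The part of lens tissue, RNA quality or Nxnl1 level in the Ctss pattern was not tested.

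**Figure D4:**
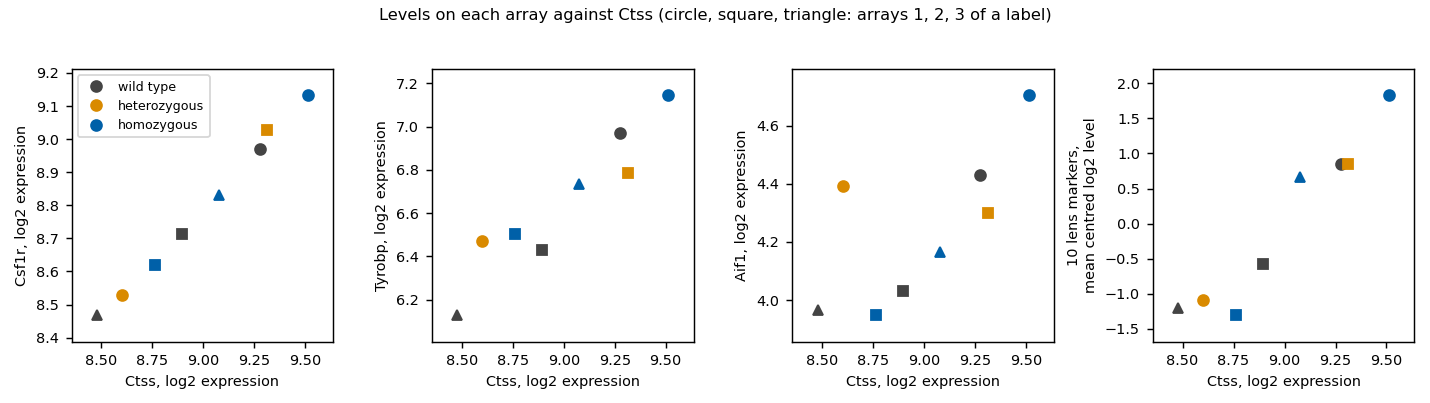
Log2 expression of Csf1r (brightest probe set), Tyrobp and Aif1, and the mean centred log2 level of the 10 lens markers, against Ctss on each array; colours are genotype labels and symbols the array number. Csf1r puts the arrays in the same order as Ctss; the lens level is above 0.6 on the 4 arrays of highest Ctss and below -0.5 on the others.

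Genes of the myeloid lineage outside the set were read from lists of related function, and none of their genes passed the test in either comparison. Of general myeloid and leukocyte genes, 24 of 26 were measured, with 20 above 0 for homozygous against wild type and a median of 0.07. The smallest p-values belonged to Ncf1, a subunit of the phagocyte oxidase, at 0.27 (SE 0.09), to the metal transporter of phagosomes Slc11a1 at 0.24 (SE 0.11) and to the Fc receptor Fcgr1 at 0.19 (SE 0.10). Ncf1 read 5.88, 5.75 and 5.92 in wild type and 6.13, 6.22 and 6.02 on the arrays labelled homozygous 1, 2 and 3, so its groups did not overlap. Other genes of resting microglia were even, with 8 of 15 above 0 and a median of 0.0050; Selplg differed by 0.23 (SE 0.18), Olfml3 by 0.24 (SE 0.20) and Fcrls by -0.09 (SE 0.10).

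Ligands and signal molecules of the member receptors had 11 of 18 above 0 and a median of 0.04. Among them the kinase subunit Pik3cg had the smallest p, at 0.26 (SE 0.11), the ecto-nucleotidase Entpd1 differed by 0.18 (SE 0.14) and Trem1 by -0.09 (SE 0.09). Myeloid transcription factors had 7 of 10 above 0 and a median of 0.08, with Irf8, a factor needed for microglia, at 0.34 (SE 0.17), Mef2c at 0.22 (SE 0.18) and Cebpb at 0.36 (SE 0.31). Genes of activated microglia had 15 of 24 above 0 and a median of 0.06, led by the cathepsin Ctsz at 0.18 (SE 0.14), Timp2 at 0.18 (SE 0.15) and the chemokine Ccl4 at 0.14 (SE 0.11). Lysosomal and phagocytic genes had 13 of 15 above 0 and a median of 0.11, with the receptor kinase Mertk at 0.30 (SE 0.16), the scavenger receptor Cd36 at -0.28 (SE 0.18) and the protease Lgmn at 0.21 (SE 0.17). Markers of border macrophages and monocytes had 9 of 14 above 0 and a median of 0.04, with Pf4 at 0.15 (SE 0.09), Stab1 at 0.19 (SE 0.14) and the monocyte receptor Ccr2 at -0.13 (SE 0.11).

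The Ctss pattern reached some of these lists. A correlation of at least 0.8 with Ctss over the 8 arrays was found for 9.06% of 18192 genes, for 9 of 15 lysosomal and phagocytic genes, 4 of 10 myeloid transcription factors, 6 of 24 general myeloid genes, 5 of 24 genes of activated microglia, 2 of 15 other genes of resting microglia, 0 of 14 markers of border macrophages and monocytes and 1 of 18 ligands and signal molecules. Outside the myeloid lists it was found for 6 of 10 lens markers and 2 of 8 markers of Müller glia and astrocytes. Ly86, a partner of the receptor Cd180 on myeloid cells, was chosen after its values were seen as the myeloid gene of widest range in this pattern. It read 7.06, 6.60 and 6.04 across wild-type arrays 1 to 3, 6.46 and 7.19 under the labels heterozygous 1 and 2, and 7.73, 6.64 and 7.05 under homozygous 1, 2 and 3. Homozygous minus wild type came to 0.57 (SE 0.34, limma unadjusted p 0.134). Lysosomal genes such as Lamp1 and Hexa, which went with Ctss, are expressed in most cell types of the retina.

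Likeness was also measured over 6083 genes outside the set whose range over the arrays was at least 0.5. The mean centred profile of the 10 members was 0.0020 on wild-type array 1, -0.12 on array 2 and -0.16 on array 3, -0.13 and 0.18 under the labels heterozygous 1 and 2, and 0.26, -0.05 and 0.03 under homozygous 1, 2 and 3. The genes most like it were Npl and Rnase4 (both Pearson 0.963 over 8 arrays), Nupr1 (0.960), Serpina3n (0.958), Ubxn8 (0.957) and Comtd1 (0.956). The gene most like each member outside the set was Zswim5 for Ctss (0.980), Car8 for Csf1r (0.972), Cks2 for Tyrobp (0.990), Card10 for Aif1 (0.987), Dusp14 for P2ry12 (0.987), Il15 for Trem2 (0.952), Pea15a for Itgam (0.931), Gm33409 for Cx3cr1 (0.921), 1110064A23Rik for Cd68 (0.948) and 4931417E11Rik for Lyz2 (0.946). These are the highest of many values over 8 arrays and carry no test.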

How the data were processed

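Total RNA of 8 mouse retina samples was measured on Affymetrix 3' expression arrays, 1 per sample. The deposited table holds log2 values that the authors made with RMA, per the submitters' processing notes. Its version is not given in the sources used here. Of 45101 probe sets, 64 controls were left out and 45037 tested. Per the platform annotation 34945 had 1 gene symbol, 932 several and 9160 none; 34741 symbols were updated by gene identifier. A gene was represented by its brightest probe set.

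Group means were fitted with limma 3.58.1 in R 4.3.3 to all 8 arrays (lmFit, eBayes, two-sided, 5 residual degrees of freedom) and p-values adjusted by the Benjamini-Hochberg method over all probe sets, threshold 0.05. The fit was tested on simulated data. SE is the moderated standard error, and the number of arrays limits the precision. Single genes were also compared by exact permutation tests. The members, the 15 other gene lists (210 entries, 193 measured), the rule for named genes (members, then up to 3 per list by p, and the genes most like the members) and the alternatives were chosen with earlier results of these data known. No test was run over a list.

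The alternatives were a repeated quantile normalization, equal array medians, a filter on low values, an intensity trend, a robust prior, array weights, 2 groups only, a replicate block, each array left out, 2 pairs of arrays left out, the actin difference as a covariate and averaging a gene's probe sets. Promoter windows were read with Python 3.11.15.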

Additional observations from a re-analysis of the deposited data

How the results depend on the processing

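In each of the alternatives run no member passed the adjusted threshold, with a smallest adjusted p of 0.284 for homozygous and 0.575 for heterozygous against wild type. Probe sets called numbered 0 in every fit but those without wild-type array 3, so that leave-one-out counts ran from 0 to 1. There 1 probe set with no single gene symbol was called in both comparisons. It differed by 6.29 (SE 0.37) for homozygous and by 6.44 (SE 0.40) for heterozygous against wild type. What it reads was not settled here, and the sex of the mice was not part of any fit. Of 174 refits of single members for homozygous against wild type 168 kept direction, and 149 of 164 for heterozygous against wild type. These counts include refits that could not change it. The trend, the robust prior, 2 groups only and the filter alter the error and not the difference. The replicate block left the homozygous differences as they were, and averaging left those of genes with 1 probe set.

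For homozygous against wild type the median over the members moved to 0.28 with heterozygous array 2 and homozygous array 2 left out, and with 1 array left out it ran from 0.085 to 0.28. P2ry12 turned to -0.0080 with array weights and to -0.094 without wild-type array 1 and homozygous array 1, and Cx3cr1 to -0.026 without the arrays labelled heterozygous 2 and homozygous 2. With 1 array left out Aif1 ran from -0.086 to 0.29, Cx3cr1 from -0.026 to 0.15 and P2ry12 from -0.026 to 0.24. Members without overlap numbered 5 without wild-type array 1 and homozygous array 1, of which 4 were higher and P2ry12 lower, where 12.8% of all genes were separated upward and 9.36% downward. They numbered 2 to 4 with 1 array left out, all higher, where 6.04% to 12.5% of all genes were separated upward, against 3.25% with all arrays; fewer arrays separate more genes.

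For heterozygous against wild type the median was 0.27 with the actin covariate, 0.21 without wild-type array 1 and homozygous array 1, and -0.054 without the arrays labelled heterozygous 2 and homozygous 2, where Lyz2 was -0.070, Csf1r -0.19, Tyrobp -0.039 and Ctss -0.28. With 1 array left out it ran from -0.054 to 0.27, Lyz2 from -0.070 to 0.14, Csf1r from -0.19 to 0.31, Tyrobp from -0.074 to 0.35, Trem2 from -0.36 to 0.039, Itgam from -0.21 to 0.11 and Ctss from -0.28 to 0.43. Deviations of same-numbered arrays from their group means correlated from -0.25 to 0.62. Between wild type and homozygous the values were 0.62, 0.23 and -0.03 for arrays 1, 2 and 3. The deviations of 2 heterozygous arrays mirror each other, so their values cannot show a pairing. Whether the numbers pair the arrays was not settled. With the replicate block Lyz2 for homozygous against wild type had an unadjusted limma p of 0.0585, for heterozygous against wild type Csf1r was -0.0077 and Ctss -0.038, and the medians were 0.14 for homozygous and 0.02 for heterozygous against wild type.

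For homozygous against heterozygous the median was -0.071 with the actin covariate, 0.33 without the arrays labelled heterozygous 2 and homozygous 2 and -0.032 without wild-type array 1 and homozygous array 1, and -0.032 to 0.32 with 1 array left out. The cause of these shifts was not tested, beyond the fewer arrays in each fit. A group left with 1 array was assumed to vary like the others. The filter on low values left 4 members, so the other 6 have no value there.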

Other observations

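Markers of other blood cells were read on the same arrays for homozygous against wild type, and none passed the test. Neutrophil genes had 9 of 10 above 0 with a median of 0.15; Ngp, a granule protein, differed by 0.30 (SE 0.13), the collagenase Mmp8 by 0.20 (SE 0.09) and the peroxidase Mpo by 0.16 (SE 0.11). Markers of T, B and NK cells had 7 of 12 above 0 with a median of 0.02, and red cell genes 1 of 4 with a median of -0.06. Endothelial and pericyte markers had 9 of 10 above 0 with a median of 0.21, and Tie1, an endothelial receptor kinase, read 3.68, 3.69 and 3.57 across wild-type arrays 1 to 3, 3.71 and 3.67 under the labels heterozygous 1 and 2, and 4.64, 4.05 and 3.99 under homozygous 1, 2 and 3. Its groups did not overlap, and homozygous minus wild type came to 0.58 (SE 0.17, unadjusted limma p 0.0081). Pigment epithelium and choroid markers had 2 of 10 above 0 with a median of -0.12, Müller glia and astrocyte markers 4 of 8 with a median of 0.04, and photoreceptor markers 8 of 9 with a median of 0.02.

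Gfap, the intermediate filament of reactive glia, read 6.84, 6.37 and 6.54 across wild-type arrays 1 to 3, 6.28 and 7.15 under the labels heterozygous 1 and 2, and 7.27, 6.57 and 7.17 under homozygous 1, 2 and 3. Its 4 highest arrays were those highest in Ctss. Of these, wild-type array 1 lay below the others, and the others were the arrays lowest in Nxnl1. Whether Gfap follows the Nxnl1 level was not tested.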
